A study of Oryctolagus cuniculus with 8 samples.

Results

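Among 23669 rabbit gene IDs tabulated for lung, 52 differed between lungs with congenital diaphragmatic hernia (CDH) and control lungs by similar amounts with and without treprostinil. Of the 23669 IDs, 3835 had no count in any library, and 11437 were eligible by the level required below. Of the 52, 19 were higher and 33 were lower in CDH lungs. Values are given as CPM, the counts of an ID per 1000000 counts of its library. An ID was taken when its mean reached 5 CPM in at least 1 group and every CDH library lay 1.5-fold or more beyond both control libraries in the same direction. The means of exposed and placebo CDH lungs also had to lie under 25% apart, the larger taken relative to the smaller. A run of 37 consecutively numbered IDs was set aside beforehand, and 0 of them met these limits. The limits read all 8 libraries, so levels and fold changes of the members are a description of how they were chosen, and counts of calls are printed below only beside their background, with nothing read from them.

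In CDH the diaphragm does not close and abdominal organs enter the chest. The lung stays small, its airways branch less, and its arteries become thick-walled and reactive, which leads to pulmonary hypertension after birth. Treprostinil is a stable analogue of prostacyclin. Prostacyclin acts on the IP receptor of vascular smooth muscle, raises cyclic AMP and relaxes the vessel.

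RNA was sequenced from whole lung of rabbits (Oryctolagus cuniculus). The hernia was created surgically, and treprostinil was administered on day 24 of pregnancy (rabbits reach term on day 31). The groups were 3 CDH lungs without the drug, titled unexposed and labelled placebo (placebo CDH), 3 CDH lungs with the drug (exposed CDH), and 2 control lungs, also unexposed and labelled placebo. The sources used here do not give strain, sex, dose, day of collection or whether controls had sham surgery. Total counts per library ran from 9367924 (placebo CDH replicate 2) to 22060353 (exposed CDH replicate 2). Sample titles carry a code that the labels do not explain: 83 for both controls, 81 for all exposed lungs, 61 for placebo replicates 1 and 2, and 56 for placebo replicate 3. No code occurs in more than 1 group, so hernia, drug and code cannot be told apart. No label says that libraries came from separate animals.

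The count table gives Ensembl IDs without gene names, and 0 of them could be paired with a symbol. No pathway, cell type or lung marker could therefore be assigned to a member, and the tissue label was not checked against markers. Members are called by their rank within each direction, ordered by the gap between groups. The gap is the fold between the lowest CDH library and the highest control for higher members, and between the lowest control and the highest CDH library for lower members. The first 2 of each direction are given by ID. CPM are shares of reads and are not corrected for gene length. In whole tissue, fewer cells of a type and less RNA per cell cannot be told apart.

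Most higher members differed from control by a fold near 2, and a few by far more. Their median fold over control was 2.27 in placebo CDH and 2.30 in exposed CDH lungs. A fold of 2 or more in both kinds of CDH lung was reached by 11 of 19, of 3 or more by 7, and of 10 or more by 2. Over all IDs fitted, the median log2 fold change was 0.01 in each comparison with control.

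ENSOCUG00000024282 was read in every CDH lung and was nearly without reads in controls. It had 111.6, 94.5 and 92.7 CPM in placebo CDH replicates 1 to 3 and 92.3, 88.8 and 96.3 CPM in exposed replicates 1 to 3. The controls had 3 and 0 counts, and a count of 0 in control replicate 2 allows up to 0.146 CPM. All 6 CDH libraries thus held 885 to 2025 counts where the controls held 3 or none. Pooled over libraries, the ratio of CDH to control was 1227, with an exact 95% interval of 420 to 5949 that covers counting error only. Exposed and placebo CDH lungs overlapped, with an edgeR log2 difference of -0.12 (95% interval -0.42 to 0.17).

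ENSOCUG00000025657 had the second widest gap. It stood at 6.49 and 4.58 CPM in the controls, at 90.4, 91.9 and 156 CPM in placebo CDH and at 138, 83.4 and 103 CPM in exposed CDH lungs. The lowest CDH library was 12.8-fold above the highest control, whereas the CDH libraries themselves spanned 1.88-fold. Its log2 fold change over control was 4.34 with a standard error of 0.34 in placebo CDH, and 4.26 with a standard error of 0.34 in exposed CDH lungs (edgeR).

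The next 3 higher members were lower in read share. Rank 3 had 4.16 and 5.07 CPM in controls and between 19.5 and 25.1 CPM in the CDH libraries. Rank 4 stood at 2.05 and 3.75 CPM in controls and between 11.1 and 21.1 CPM in CDH lungs. For rank 5 the controls were close together, at 4.66 and 4.24 CPM, and the CDH lungs spread from 9.55 CPM (placebo replicate 3) to 27.9 CPM (placebo replicate 2). All 5 of these members had a gap of 2-fold or more, and the other 14 had gaps of 1.52-fold to 1.87-fold.

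The other higher members with many reads had smaller folds. Rank 11 took the most reads of any member: 2084 and 2119 CPM in controls, 5890, 3451 and 3609 CPM in placebo CDH and 3896, 3888 and 4172 CPM in exposed CDH lungs. Placebo replicate 1 stood above the other 5 CDH libraries there. Rank 10 had 233 and 209 CPM in controls, and its CDH libraries ran from 399 to 476 CPM, the narrowest CDH span of the 52 members at 1.19-fold. Rank 7 stood at 34.8 and 30.03 CPM in controls and varied more in CDH lungs, from 65.0 CPM in placebo replicate 3 to 143 CPM in placebo replicate 1. For rank 13, controls at 33.4 and 52.8 CPM lay 1.58-fold apart, against CDH libraries of 83.6 to 112 CPM. Rank 8, with 45.0 and 42.2 CPM in controls, held 5 CDH libraries between 82.6 and 89.8 CPM and exposed replicate 1 at 119 CPM. These 5 are the members with the most reads among the higher ones besides ranks 1 and 2.

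Of the other higher members, rank 6 stood at 20.8 and 20.2 CPM in controls and between 38.9 and 58.5 CPM in CDH lungs. Rank 9 had 2.99 and 3.61 CPM in controls and 6.54 to 9.16 CPM in CDH lungs. A further 6 members (ranks 12, 14, 15 and 17 to 19) were sparsely read, with control means of 1.92 to 9.59 CPM and folds of 1.71 to 3.72. Rank 16 is described below with the comparison of exposed and placebo lungs.

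**Figure D1:**
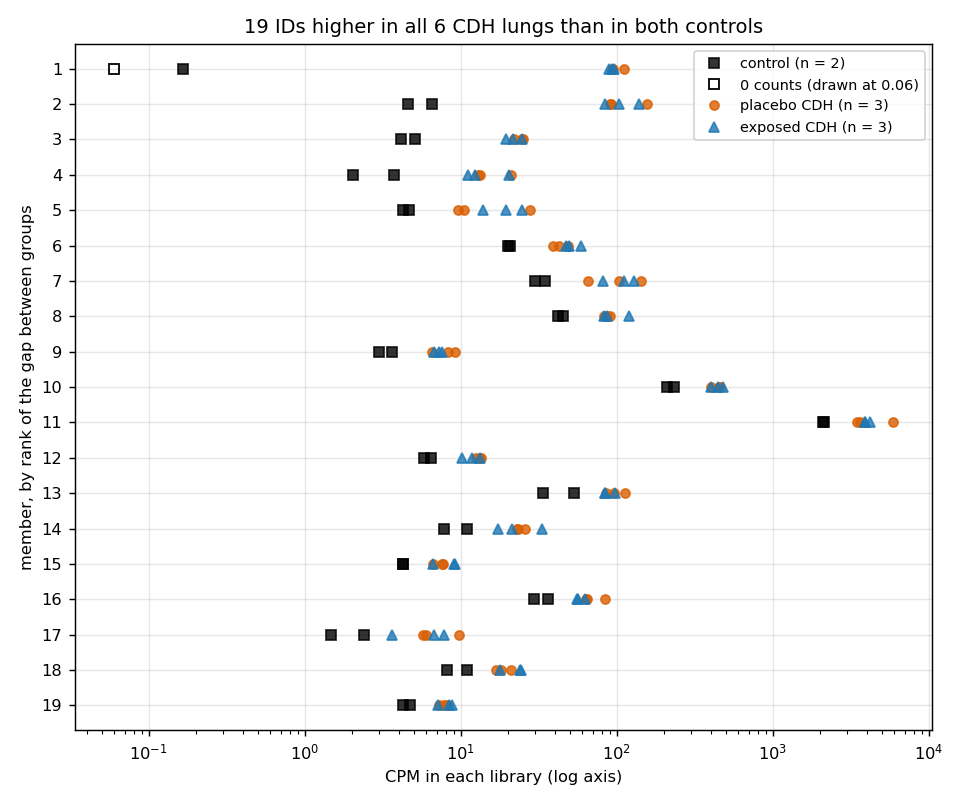
CPM in each library (horizontal, log axis) for the 19 higher members, by rank of the gap (vertical). Squares are the 2 controls, circles the 3 placebo CDH and triangles the 3 exposed CDH libraries, and the control library with 0 counts is drawn as an open square at the left. Circles and triangles intermingle to the right of the squares in nearly every row, and rank 1 stands farthest from its controls.

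The lower members had a median fold below control of 2.75 in placebo CDH and 2.56 in exposed CDH lungs. A fold of 2 or more in both kinds of CDH lung was reached by 22 of 33, of 3 or more by 7, and of 10 or more by 2.

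ENSOCUG00000021849 was the only lower member, of 33, with a gap above 3-fold. It had 181 and 156 counts in controls (10.04 and 7.61 CPM). In the CDH libraries it had 5, 2 and 5 counts in placebo and 5, 8 and 5 counts in exposed lungs, or 0.213 to 0.363 CPM. The pooled ratio of control to CDH was 28.95 (exact 95% interval 19.9 to 43.6, counting error only). With so few counts in CDH lungs, the exposed to placebo log2 difference of 0.02 had a wide 95% interval, -0.87 to 0.91 (edgeR).

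ENSOCUG00000026727 stood at 113 and 117 CPM in the controls. Placebo CDH lungs had 29.9, 35.5 and 33.4 CPM, and exposed ones 36.2, 41.0 and 39.7 CPM. Every exposed library lay above every placebo library and far below both controls. The log2 fold change from control was -1.82 with a standard error of 0.10 in placebo CDH and -1.59 with a standard error of 0.10 in exposed CDH lungs. The exposed to placebo log2 difference was 0.23 (edgeR 95% interval 0.03 to 0.44). This member thus met the limit of 25% while its exposed lungs stood slightly nearer to control in these libraries. The intervals of this member and of rank 5 are not adjusted for the number of IDs fitted. Neither was called between exposed and placebo CDH lungs. Rank 5 showed the same order: controls at 52.2 and 52.0 CPM, placebo CDH lungs at 16.2 to 18.8 CPM and exposed ones at 20.03 to 22.5 CPM, with a log2 difference between the latter of 0.26 (edgeR 95% interval 0.07 to 0.45).

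Among the lower members, ranks 7, 6, 25, 31 and 2 had the most reads in controls, followed by rank 26. Rank 7 stood at 202 and 265 CPM in controls and at 52.5 to 91.8 CPM in CDH lungs. In rank 6 the controls differed, at 154 and 244 CPM, and the CDH libraries ran from 31.9 to 68.4 CPM. Rank 25 had 146 and 143 CPM in controls against 60.4 to 88.7 CPM. In all 3 the CDH libraries lay below both controls, as the choice required.

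Rank 31 stood at 129 and 126 CPM in controls, 82.2, 75.7 and 72.0 CPM in placebo CDH and 72.7, 59.2 and 55.6 CPM in exposed CDH lungs. Its exposed lungs tended to lie farther from control than placebo lungs did, although exposed replicate 1 overlapped the placebo range. The log2 difference was -0.31 (edgeR 95% interval -0.53 to -0.09). That interval is not adjusted for the number of IDs fitted, and rank 31 was not called between exposed and placebo CDH lungs. Rank 26, with 123 and 105 CPM in controls, held all CDH libraries between 48.9 and 66.0 CPM.

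Less read lower members covered a similar range of folds. Rank 4 had 6.27 and 5.95 CPM in controls, and its CDH libraries lay close together at 2.03 to 2.48 CPM. Rank 8 had 16.1 and 18.5 CPM in controls and ran from 2.16 CPM in placebo replicate 1 to 7.79 CPM in placebo replicate 2. For rank 9 the controls were at 42.5 and 41.8 CPM and the CDH lungs at 10.9 to 20.8 CPM. Rank 10 stood at 39.1 and 47.4 CPM in controls and at 8.98 to 19.6 CPM in CDH lungs. Another 15 lower members, from rank 13 to rank 33, had control means of 6.90 to 92.0 CPM, folds of 1.60 to 3.39 and gaps of 1.51 to 1.79.

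**Figure D2:**
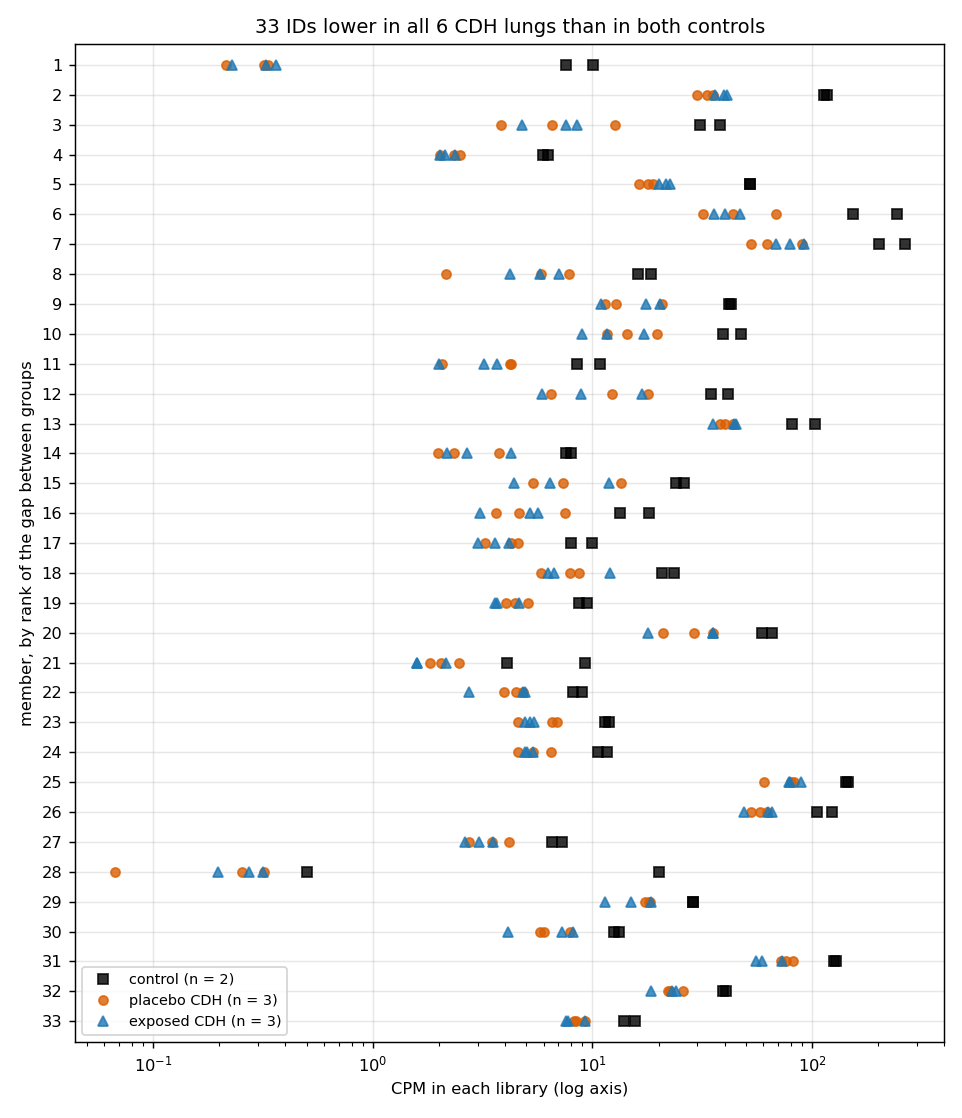
CPM in each library (horizontal, log axis) for the 33 lower members, by rank of the gap (vertical). Squares are the 2 controls, circles the 3 placebo CDH and triangles the 3 exposed CDH libraries. The controls lie to the right in every row. In rank 28 the control squares are 40.2-fold apart, and the left square lies close to the CDH libraries.

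Rank 28 of the lower members rested on 1 control library. It had 412 counts (20.1 CPM) in control replicate 2 and 9 counts (0.499 CPM) in control replicate 1, against 1 to 7 counts in each CDH library. By group means it had the largest fold of the lower members, 48.1 in placebo CDH. Between its nearest libraries, which held 9 and 3 counts, the fold was 1.56. The filter on low counts of the edgeR fit removed it. Rank 21 was the other lower member whose controls were more than 2-fold apart, at 4.10 and 9.26 CPM, with 1.59 to 2.47 CPM in CDH lungs. In all, 6 of the 52 members had controls 1.5-fold or more apart. A library with under 20 counts occurred in 5 members, namely higher rank 1 and lower ranks 1, 4, 21 and 28.

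Some IDs lay close to the limits on either side. The 3 higher members nearest to the 1.5-fold limit had gaps of 1.519 to 1.521, and the 3 nearest IDs outside had gaps of 1.448 to 1.469. Among lower members the nearest inside were 1.506 to 1.530 and the nearest outside 1.471 to 1.496. At the limit of 25% between the CDH means, the nearest members inside had ratios of 1.19 to 1.21 (higher) and 1.21 to 1.23 (lower). The nearest IDs outside had ratios of 1.261 to 1.36 (higher) and 1.251 to 1.264 (lower). The first of these stood at 0.340 CPM in controls, with a placebo CDH mean of 15.9 CPM and an exposed mean of 20.1 CPM. At the 5 CPM limit, the least read higher member reached 7.15 CPM and the nearest ID outside 4.99 CPM. For lower IDs these values were 6.11 and 3.23 CPM.

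Similar means in exposed and placebo CDH lungs are the usual case in these data. Of 11437 IDs that reached 5 CPM, 87.3% had CDH means under 25% apart. Among the 95 IDs past the 1.5-fold limit against control, 52 (54.7%) did. The higher ones among the 95 made up 0.332% of those IDs (38 of 11437) and the lower ones 0.498% (57 of 11437). The 43 that differed between CDH groups were divided almost evenly: exposed lungs were farther from control than placebo lungs in 20 and nearer in 23. The median span over the 6 CDH libraries was 3.26-fold for these 43 IDs, 1.57-fold for members and 1.31-fold for all 11437 IDs. The first 2 of these spans are partly fixed by the limit on the CDH means.

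**Figure D3:**
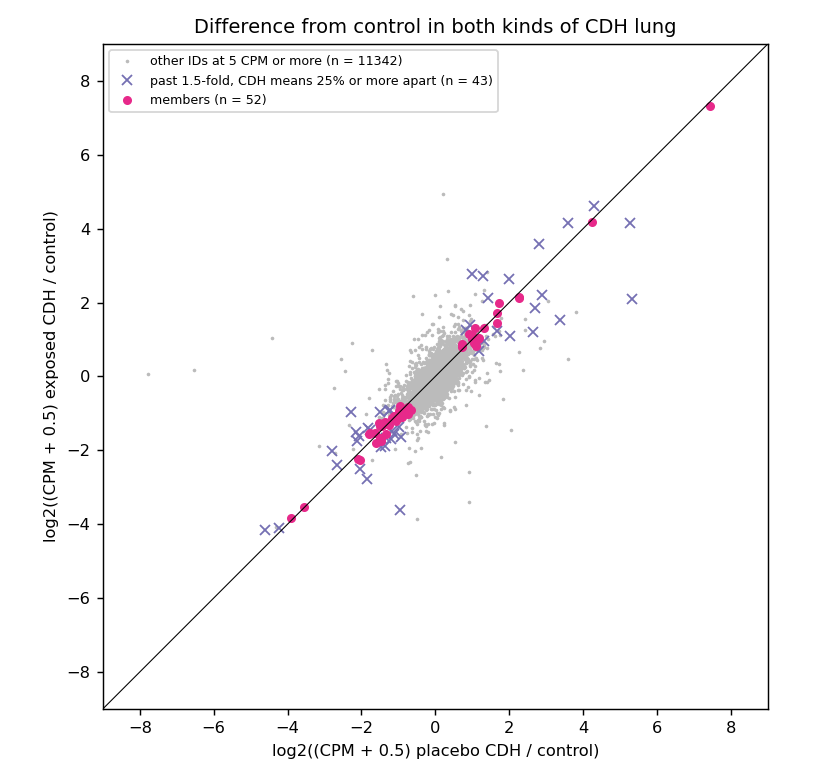
Log2 difference from control, with 0.5 CPM added to each mean, in placebo CDH (horizontal) and exposed CDH lungs (vertical) for every ID that reached 5 CPM. Filled circles are the 52 members, crosses the 43 IDs past the 1.5-fold limit whose CDH means lay 25% or more apart, and small dots the rest. Both axes share the 2 control libraries, and the members lie along the line of equality because the limits placed them there.

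Within the limit of 25%, exposed lungs lay on either side of placebo lungs. Exposed lungs were farther from control than placebo lungs in 8 of 19 higher and 20 of 33 lower members. The median ratio of the CDH means was 1.103 for higher and 1.13 for lower members, and 21 of the 52 had a ratio under 1.1. Exposed and placebo libraries did not overlap in 3 of 52 members, or 5.77%, against 21.8% of the 11437 IDs, a difference that the limit of 25% favours. Those 3 were lower ranks 2 and 5, described above, and higher rank 16. Rank 16 had 63.8, 83.5 and 64.6 CPM in placebo CDH and 56.5, 55.5 and 62.9 CPM in exposed CDH lungs, over controls at 29.4 and 36.4 CPM.

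The data leave room for differences between exposed and placebo lungs larger than the limit allows in the means. The edgeR 95% interval of the log2 difference had a median half-width of 0.36 for higher and 0.52 for lower members, and it reached past 25% in 18 of 19 and 30 of 32 members fitted. It reached past 1.5-fold in 6 and 22 of them. Equal levels were thus not shown for most members. The limit of 25% on the means nearly fixed that no member was called between exposed and placebo CDH lungs, whether by edgeR (adjusted p under 0.05), DESeq2 or limma voom. At an unadjusted p under 0.05 in edgeR, 3 lower and 0 higher members passed. The share of all IDs, not chosen for similar means, was 15.4%, so these are not comparable. Over all 14507 IDs fitted, edgeR called 0.345% higher and 1.08% lower in exposed lungs.

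Against control, the same fit called 14 of 19 higher and 21 of 32 lower members in placebo CDH lungs, where 0.841% and 1.44% of all IDs were called higher and lower. In exposed CDH lungs it called 19 of 19 and 32 of 32, where 2.43% and 5.34% of all IDs were called. The limits used these contrasts and both share the controls, so the counts are printed only for orientation. Placebo calls fell from 35 to 15 without placebo replicate 2 and to 12 and 11 without control replicates 1 and 2, while calls over all IDs fell from 331 to 90, 57 and 50. Exposed calls fell from 51 to 33 without exposed replicate 3 and to 14 and 20 without control replicates 1 and 2, while calls over all IDs fell from 1127 to 444, 66 and 252. The members that edgeR did not call in placebo CDH included some with large folds. Higher rank 5 had a log2 fold change of 1.80 (standard error 0.49) and lower rank 12 one of -1.67 (standard error 0.46). Both had wide spreads among placebo libraries. The placebo count depended on the test. DESeq2 called 19 of 19 higher and 31 of 32 lower members there, beside 903 of all IDs in both directions together. In exposed CDH lungs DESeq2 called 19 and 32, beside 1775 of all IDs. With limma voom, 35 members were called in placebo CDH lungs, beside 307 of all IDs.

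A library that took no part in the choice gives a measurement the choice did not use. The limits were therefore applied to 7 libraries and the eighth was read afterwards. Without control replicate 1, 40 higher and 60 lower IDs met the limits. Control replicate 1 lay on the control side of all CDH libraries in 34 and 42 of them, and 1.5-fold or more beyond in 19 (47.5%) and 33 (55.0%). Over all IDs at 5 CPM or more, control replicate 1 lay that far below all CDH libraries in 1.12% and above in 1.005%. Without control replicate 2, 75 higher and 77 lower IDs met the limits. Control replicate 2 lay 1.5-fold or more beyond in 19 (25.3%) and 31 (40.3%), against 0.586% and 0.839% of all IDs. These 19 and 33, and 19 and 31, IDs are themselves members, since passing in the left-out control completes the limits on all 8 libraries. With a single control, then, most higher IDs that met the limits did not meet them in the other control. The left-out control lay on the same side in 85.0% and 69.3% of the higher IDs for control replicates 1 and 2. Over all IDs the shares were 18.7% and 24.7%. For lower IDs these shares were 70.0% and 92.2%, against 22.3% and 14.4% of all IDs. The same CDH libraries served in choosing and reading, and all IDs were not picked for a gap. The choice thus favoured the higher shares, and nothing is read from the difference.

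Leaving out a CDH library changed less. The left-out CDH library lay on the same side of both controls in 84.8% to 100% of the IDs chosen on the other 7, against 30.8% to 49.4% of all IDs at 5 CPM or more. It lay 1.5-fold or more beyond in 82.1% to 95.5% when an exposed library was left out and in 57.6% to 85.7% when a placebo library was, against 2.26% to 4.87% of all IDs. Of the 52 members, 42 to 48 met the limits again without any single CDH library. Leaving out a CDH library can only loosen the limit on the gap, so this count was largely fixed in advance. A member could drop out only through the limit on the CDH means or the 5 CPM limit. Without placebo replicates 1 and 3, 33 higher IDs met the limits each time, against 19 with all libraries. The other group was the same in choosing and reading, and libraries with 1 title code may not be independent, so these shares carry no p. All IDs, unlike the chosen ones, were not picked for a gap, so the choice itself favoured higher shares among the chosen.

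**Figure D4:**
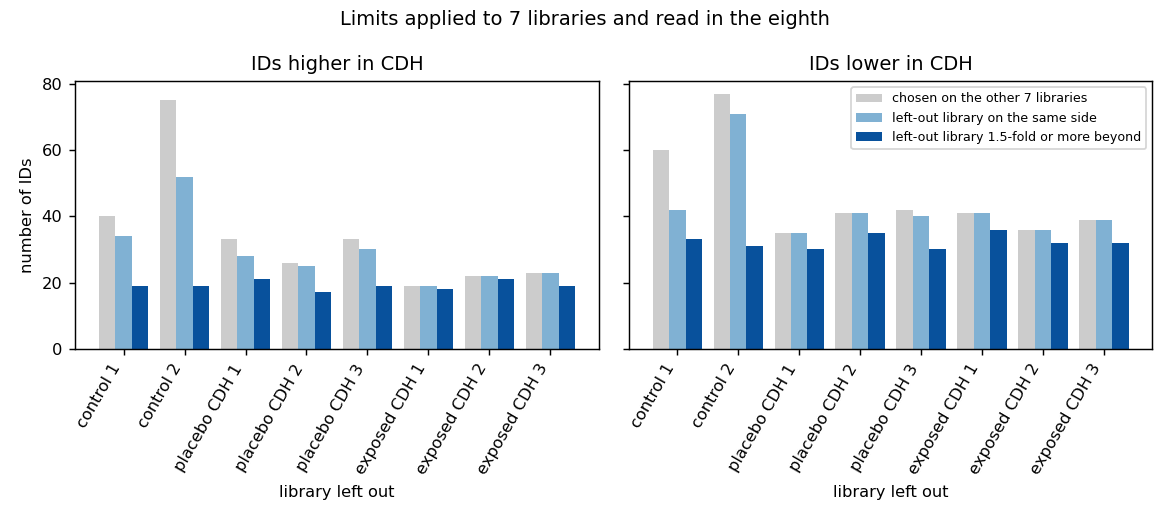
Number of IDs (vertical) that met the limits on 7 libraries (grey), whose left-out library lay on the same side (light blue), and whose left-out library lay 1.5-fold or more beyond (dark blue), for each library left out (horizontal). The grey bars are tallest where a control was left out, reaching 75 and 77 IDs without control replicate 2.

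The members varied more between like libraries than most IDs did. The median SD of log2 CPM was 0.17 (higher) and 0.29 (lower) within placebo CDH and 0.19 and 0.25 within exposed CDH lungs, against 0.13 and 0.11 over all 11437 IDs. The controls differed by a median of 1.13-fold in members and 1.08-fold in all IDs. The members also had fewer reads, with a median of 24.0 CPM in the group where each was highest against 39.0 CPM in all IDs. Over the CDH libraries, where these SDs were taken, the median level was 23.9 CPM for higher members. For lower members it was only 7.90 CPM. Fewer reads alone raise counting error. The part of read depth in the wider spread was not tested. The 43 IDs past the 1.5-fold limit whose CDH means differed more had wider spreads still. Their median SD was 0.55 within placebo and 0.34 within exposed CDH lungs, and their controls differed by a median of 1.16-fold. Their median level was 20.1 CPM. Wider spread and fewer reads than in all IDs were thus not particular to the members. Among the 6 CDH libraries, 14 members spanned 2-fold or more (3 higher and 11 lower), and 21 spanned under 1.5-fold.

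Several of the variable members varied alike among the CDH lungs. They were picked out after their values were seen. Lower rank 12 had 6.49, 12.3 and 17.8 CPM in placebo CDH replicates 1 to 3 and 8.84, 16.8 and 5.89 CPM in exposed replicates 1 to 3, over controls at 34.7 and 41.6 CPM. Lower rank 15 had 5.35, 7.37 and 13.4 CPM and 6.43, 11.9 and 4.38 CPM in the same libraries, over controls at 24.0 and 26.0 CPM. Both were highest in placebo replicate 3 and exposed replicate 2 and spanned 3.03-fold and 3.06-fold. That pair of highest libraries occurred in 8 of the 52 members, 7 of them lower, and in 8.52% of all 11437 IDs. The quotient of rank 15 to rank 12 stayed between 0.600 and 0.824 in the 6 CDH libraries and was 0.690 and 0.625 in controls. They stand on adjacent lines of the count table. Reads shared between such entries cannot be told apart here, since no source used here gives the counting rule. Lower rank 3 followed part of this pattern, with 3.82, 6.51 and 12.6 CPM in placebo replicates 1 to 3 and 8.48, 7.57 and 4.78 CPM in exposed replicates 1 to 3, over controls at 38.2 and 30.9 CPM.

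Higher ranks 2 and 4, likewise picked out after their values were seen, also kept step with each other among the CDH libraries. Both were highest in placebo replicate 3 and exposed replicate 1, and both were lowest in exposed replicate 2. That pair of highest libraries was common, occurring in 10 of the 52 members and 20.1% of all 11437 IDs, and exposed replicate 2 was lowest in 15 members and 20.6% of IDs. The quotient of rank 2 to rank 4 ran from 6.77 to 8.33 over the 6 CDH libraries, a span of 1.23-fold, while each ID alone spanned 1.88-fold and 1.90-fold. In the controls the quotient was 3.16 and 1.22. Their lines in the table lie 13174 apart. How often other pairs of IDs have so narrow a quotient was not computed.

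Members within 3 lines of each other in the table formed 3 pairs, all of lower members. Besides ranks 12 and 15, these were ranks 10 and 11 and ranks 9 and 31. The quotient of ranks 11 and 10 ran from 0.178 to 0.314 in CDH lungs, a span of 1.76-fold, beside spans of 2.13-fold and 2.18-fold in each alone. The quotient of ranks 31 and 9 ran from 3.18 to 6.63, wider than the span of either ID alone (1.48-fold and 1.91-fold), so these did not move together. No source used here says what the order of lines stands for.

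**Figure D5:**
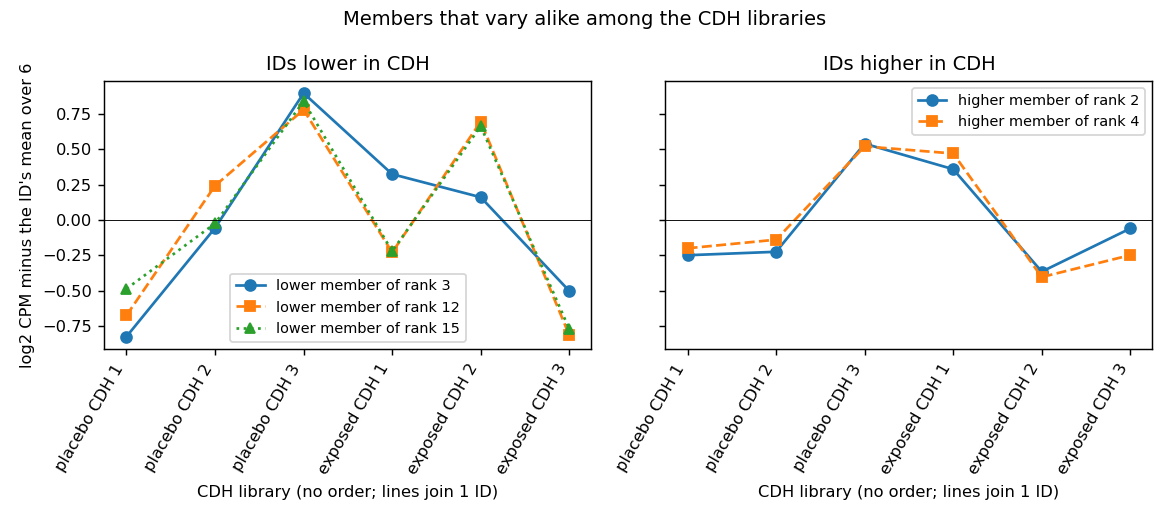
Log2 CPM minus the mean of the ID over the 6 CDH libraries (vertical) in each CDH library (horizontal), for lower ranks 3, 12 and 15 on the left and higher ranks 2 and 4 on the right. Lines join the values of 1 ID and imply no order of libraries. On the left, ranks 12 and 15 nearly coincide with maxima in placebo replicate 3 and exposed replicate 2, and on the right both IDs peak in placebo replicate 3 and exposed replicate 1.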

How the data were processed

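The authors deposited unnormalized counts for each Ensembl rabbit gene ID in 8 lung libraries. The submitters' processing notes name Trimmomatic 0.36, STAR 2.5.2b, DESeq2 and the build OryCun2.0. No source used here gives the counting program, annotation release, strand setting or treatment of multiply matching reads. Groups came from sample titles. The limits that define the members were applied to CPM from column sums. The members and lists were chosen with earlier results of these data known. The 21 gene lists could not be matched, because the name table (assembly mOryCun1.1) lists 0 Ensembl IDs.

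Fits used edgeR 4.0.16 in R 4.3.3 (filterByExpr, TMM factors 0.973 to 1.03, glmQLFit and glmQLFTest, 14507 IDs, 8 libraries in 3 groups). Calls had a Benjamini-Hochberg adjusted p under 0.05 over all IDs fitted. Standard errors came from the F statistic. The fit and the limits were tested on simulated data. For the limits, the simulated IDs had many reads, counting error alone and planted changes well past the limits. That test checks how the limits were coded and not how they act on IDs near them. Alternatives were other limits, RLE scaling, 2 other count filters, DESeq2 1.42.0, limma 3.58.1 voom, only the groups compared, a replicate block and leaving out each library. IDs to be described were those with the widest gaps, the most reads and the values nearest each limit, with 2 per direction printed. The pairs that vary together were added afterwards. Since no label names separate animals, p-values reflect the spread among these libraries, which may be technical.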

Additional observations from a re-analysis of the deposited data

How the results depend on the processing

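Every count of members is set by the limits. A fold limit of 2 left 5 higher and 9 lower IDs, and a limit of 1.2 gave 122 and 175. A mean limit of 1 CPM gave 38 higher IDs, and a mean limit of 20 CPM gave 12 higher and 17 lower. A limit of 1.1 on the ratio of CDH means gave 9 and 12. TMM-scaled sizes, a ratio limit of 1.5 and, added after seeing the data, totals without the run of 37 IDs each left both counts within 1.5 times. Leaving out 1 library gave 19 to 75 higher and 35 to 77 lower members. The median fold from control of the fixed members, 2.30 (higher) and 2.70 (lower) over all 6 CDH libraries, ran from 2.19 to 2.53 and from 2.59 to 2.77 without 1 library. Members called by edgeR without 1 library numbered 11 to 35 for placebo CDH against control, 14 to 50 for exposed CDH against control, and 0 for exposed against placebo, while calls over all IDs ranged over 50 to 443, 66 to 1282 and 43 to 185. With the last number of the title code as a replicate block, 19 and 20 members were called against control, beside 94 and 215 of all IDs. Whether that number pairs the libraries was not settled. Over 8 pairs that share it, each library centred on the mean of its group, correlations ran from -0.07 to 0.07. Once centred, the 2 controls mirror each other, and the 8 pairs reuse the same libraries. These correlations therefore cannot decide whether the libraries are paired. The cause was not tested, except that fewer libraries enter when 1 is left out. The 2 controls limit the precision of every member.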
